A study of Mus musculus with 3 samples.

Results

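Interleukin-1 (IL-1) family and inflammasome transcripts were followed in leukocytes of 4T1 mammary tumors. The 10 genes were taken by symbol from the 32285 genes of the deposited matrices: the agonists Il1a, Il1b, Il1f9 and Il18, the receptor antagonist Il1rn, the decoy receptor Il1r2, the shared receptor chain Il1rap, and the inflammasome genes Nlrp3, Casp1 and Casp4. All 10 had UMIs (unique molecular identifiers, 1 per captured transcript) in each of the 3 libraries.

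4T1-luc, a BALB/c mammary carcinoma line with a luciferase reporter, was placed in the 4th mammary fat pad of female BALB/c mice aged 6 to 8 weeks at 200000 cells a mouse. Mice of the vehicle group received DPBS, and mice of the p38i group received LY2228820 (ralimetinib), an inhibitor of p38α and p38β, by gavage at 30 mg/kg a day for 10 days from day 4. The p38KO tumors grew from H9, 1 clone of 4T1 cells whose p38α gene was disrupted by CRISPR-Cas9, with no treatment given in the labels. Tumors of 3 mice a group were pooled at day 14, and live CD45+ cells were sorted into 1 library a group. The p38KO disruption is in the tumor cells, so the sorted leukocytes carry intact Mapk14 and its level checks no label. With 1 library a group there is no spread between mice, and the difference of condition, pool, clone and library cannot be told apart. Every interval below is a 95% interval that covers counting error only, and no test between groups was made.

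IL-1α and IL-1β bind the same receptor and drive neutrophil recruitment and the making of further inflammatory cytokines. IL-1β and IL-18 are made as precursors that caspase-1 cleaves in inflammasomes such as that of NLRP3, so a transcript level is not a level of active cytokine. The antagonist encoded by Il1rn occupies the receptor without signalling, and IL-1R2 binds IL-1 without a signalling domain. p38 is known to act through the kinase MK2 on proteins that bind AU-rich sequence in the tails of cytokine transcripts, of which the pentamer ATTTA is the core.

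Il1a (chr2:129299610-129309972) and Il1b (chr2:129364570-129371139) are neighbours on the minus strand, 54.6 kb apart in GENCODE M21 on GRCm38. Il1rn (chr2:24336853-24351494) and Il1f9 (chr2:24186476-24193568), the gene of IL-36γ, lie on the plus strand of the same chromosome, 143 kb apart. Il1r2 (chr1:40074079-40125231), Il1rap (chr16:26581704-26730117), Il18 (chr9:50554827-50581840), Nlrp3 (chr11:59541568-59566956), Casp1 (chr9:5298517-5307265) and Casp4 (chr9:5308828-5336783), the mouse gene of caspase-11, are on the plus strand. Il1a was added to the promoters below after its values were seen, because it stood above vehicle with Il1rn in p38KO neutrophils. The 250 bases before the start are shown for it and for Il1b, Il1rn and Il1r2, the agonist, antagonist and decoy compared below. They are RefSeq sequences on GRCm38.p6, whose table held all 10 members, 5′ to 3′ toward the start, and capitals mark matches on either strand to AP-1 (TGACTCA or TGAGTCA), CRE (TGACGTCA), C/EBP (TTNCNNAA) or the kappaB motif, searched by name.
Il1b promoter, chr2:129371140-129371389, minus strand: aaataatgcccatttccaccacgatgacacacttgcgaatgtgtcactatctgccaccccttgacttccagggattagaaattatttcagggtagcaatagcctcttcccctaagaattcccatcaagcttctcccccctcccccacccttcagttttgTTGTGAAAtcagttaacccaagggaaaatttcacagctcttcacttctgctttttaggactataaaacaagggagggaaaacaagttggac
Il1a promoter, chr2:129309973-129310222, minus strand: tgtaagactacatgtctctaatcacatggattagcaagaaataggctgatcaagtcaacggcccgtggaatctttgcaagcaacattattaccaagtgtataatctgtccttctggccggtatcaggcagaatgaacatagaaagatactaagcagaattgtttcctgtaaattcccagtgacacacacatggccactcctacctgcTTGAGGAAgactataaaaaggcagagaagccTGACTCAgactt
Il1rn promoter, chr2:24336610-24336859, plus strand: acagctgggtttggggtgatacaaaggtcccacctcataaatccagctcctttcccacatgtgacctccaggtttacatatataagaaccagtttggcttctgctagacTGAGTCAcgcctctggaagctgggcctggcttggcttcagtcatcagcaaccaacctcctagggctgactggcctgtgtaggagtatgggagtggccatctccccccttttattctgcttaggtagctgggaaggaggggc
Il1r2 promoter, chr1:40085843-40086092, plus strand: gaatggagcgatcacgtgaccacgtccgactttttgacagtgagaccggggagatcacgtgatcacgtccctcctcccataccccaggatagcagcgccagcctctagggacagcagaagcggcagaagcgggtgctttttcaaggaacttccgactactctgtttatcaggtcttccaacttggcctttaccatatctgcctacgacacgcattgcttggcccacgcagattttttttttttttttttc
The AP-1 letters were in the windows of Il1a and Il1rn and in 4.46% of all 32851 promoters of the table. The C/EBP letters, among the windows shown in those of Il1b and Il1a, were in 36.8%, the CRE letters in 1.55% and the kappaB motif in 3.90%. Il1rn has 3 listed starts and the one with AP-1 letters is the most upstream. Its windows at chr2:24345041-24345290 and chr2:24345121-24345370, not shown, held C/EBP letters and no AP-1 letters. Which start these cells use was not tested. The RefSeq start used for Il1r2 lies inside the GENCODE span given above, downstream of its first base. Its window held no match, which says only that these letters are absent from these bases. No window of the other 8 members held AP-1 letters. Il1a was added from these same data, and the part of these letters in any level was not tested.

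The members differ in AU-rich pentamers, shown because p38 is known to act on transcripts that hold them. The part of these pentamers in any level was not tested. The longest annotated tail of Il1b, 459 bases, holds 4 ATTTA pentamers, and 3.62% of 2127 genes with a tail of like length have 4 or more. Nlrp3 has 5 in 693 bases, a number that 4.03% of genes with like tails reach, and Il1a has 3 in 1101 bases, which 35.9% reach. Il1rap has 8 in 2676 bases, Casp4 2 in 254 and Il18 1 in 334. Il1rn has 0 in 1864 bases, and Il1r2, Il1f9 and Casp1 also have 0, with tails of 24, 772 and 88 bases. Capitals mark the pentamers in 30 bases around the longest run of overlapping or touching pentamers in the Il1b tail. In Nlrp3 no pentamers touch, and 30 bases around the first one are shown.
Il1b tail: ccacttacctATTTATTTAtgtATTTAttg
Nlrp3 tail: gaaaactcagagATTTAtaaaacccatttt

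Cells were assigned by raw counts of gate genes. The gates held 1751, 2075 and 1529 neutrophils (Csf3r or Cxcr2) in the vehicle, p38i and p38KO libraries, 439, 752 and 363 monocytes (Ly6c2 or Fn1), and 174, 193 and 562 macrophages (C1qa). T cells (Cd3e) numbered 540, 646 and 514, NK cells (Ncr1) 117, 114 and 132, and dendritic cells (DC, Flt3) 20, 40 and 41, while 18.6 to 20.4% of kept cells met no gate. Markers that the gates did not use were highest, in each library, in the gate they name: S100a8, S100a9, Mmp9, Retnlg, Hdc and G0s2 in neutrophils, Ccr2 and F13a1 in monocytes, C1qb, Apoe and Trem2 in macrophages. Median depth was 2180 to 2529 UMIs in neutrophils, 7681 to 8911 in monocytes and 13224 to 17301 in macrophages. The p38KO library differed from vehicle in 3 ways that move with its results. Mast cell or basophil markers summed to 79.3 CPM (counts per 1000000) in its neutrophil gate, against 4.10 in vehicle. The p38i library, at 40.1 CPM, also stood above vehicle there. Mcpt8, 1 of these markers, was at 33.4 CPM in p38i, 30.1 in p38KO and 0.745 in vehicle. Tumor epithelium markers summed to 145 CPM in p38KO neutrophils against 10.1 and 3.99 in vehicle and p38i. Most of that was Krt14, with 516 counts against 0 and 1. The kept cells of p38KO had a median of 2.10% mitochondrial counts against 0.671% and 0.968%. Within gates the mitochondrial medians lay closer. They were 0.519% in p38KO neutrophils against 0.321% and 0.391% in vehicle and p38i. In monocytes they were 2.73% against 2.48% and 2.48%, and in macrophages 3.82% against 2.88% and 3.08%. In the p38KO monocyte gate the tumor epithelium markers, there Epcam, Krt8 and Krt18, summed to 141 CPM against 5.59 and 4.15. Every call of a member named below stayed when the cells with such markers, or those over 5% mitochondrial counts, were left out.

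Il1b, the IL-1β gene, was highest in neutrophils. Summed over the neutrophil gate, Il1b stood at 12758 CPM (interval 12662 to 12854) in the vehicle library, 8733 (8660 to 8807) in p38i and 14323 (14206 to 14441) in p38KO, which is 39.1, 26.4 and 37.3 UMIs a cell. Monocytes had 2062, 1365 and 1636 CPM, and macrophages 752, 311 and 564. The order neutrophil, monocyte, macrophage held in each library with no overlap of intervals. With every cell thinned to 1500 UMIs, 91.4%, 89.9% and 94.6% of neutrophils had an Il1b UMI, against 8.15%, 6.66% and 6.81% of T cells, a type that should lack it and whose median depth was 3915 to 5101 UMIs before thinning. Unthinned, these shares were 94.3%, 93.2% and 95.9% in neutrophils and 20.6%, 14.4% and 16.3% in T cells.

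The other agonists were spread differently. Il1f9, whose product acts on a receptor of its own with IL-1RAP, was also highest in the neutrophil gate, at 563, 442 and 723 CPM, with 24.5, 18.5 and 22.8 in monocytes and at most 9.97 in macrophages. Il1a had no such gradient in the vehicle library. There neutrophils had 42.9 CPM (37.5 to 48.8), monocytes 56.6 (49.6 to 64.4) and macrophages 43.5 (36.8 to 51.1). The neutrophil and monocyte intervals did not overlap, and that of macrophages overlapped both. In the p38KO library the same gates had 130.3, 79.5 and 38.7 CPM, with intervals that did not overlap. Il18 was highest in monocytes, at 57.1, 54.4 and 51.1 CPM, and lower in neutrophils, at 37.5, 30.7 and 43.7, although in p38KO those 2 gates' intervals overlapped.

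The antagonist and the decoy receptor also peaked in neutrophils. Il1rn stood at 605, 508 and 1239 CPM in the neutrophil gates of the vehicle, p38i and p38KO libraries, at 356, 296 and 466 in monocytes and at 110.5, 92.0 and 86.0 in macrophages. Il1r2 stood at 984, 993 and 944 CPM in neutrophils, where the 3 libraries' intervals all overlapped. In monocytes it was at 129, 201 and 56.7 CPM and in macrophages at 64.9, 90.5 and 46.8, so in both of these gates p38i stood above vehicle and vehicle above p38KO, without overlap. Il1rap, the chain that the signalling receptor needs, had 259.8 CPM in vehicle neutrophils and 342 in those of p38KO, with 41.3 to 43.4 in monocytes.

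Among the inflammasome genes, Nlrp3, the sensor, and Casp4, which senses cytosolic lipopolysaccharide, had their highest levels in neutrophils. Nlrp3 was at 201, 159 and 298 CPM there, at 67.1 to 80.2 in monocytes and at 34.5 to 46.2 in macrophages. Casp4 was at 281, 268 and 339 CPM in neutrophils, 82.1 to 86.0 in monocytes and 30.5 to 34.2 in macrophages. Casp1, the protease that matures IL-1β and IL-18, was the flattest member. Its neutrophil level was 64.3, 56.8 and 53.5 CPM, its monocyte level 74.6, 79.6 and 85.0, its macrophage level 58.4, 49.3 and 48.5, and its T cell level 44.9, 41.6 and 32.6.

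**Figure D1:**
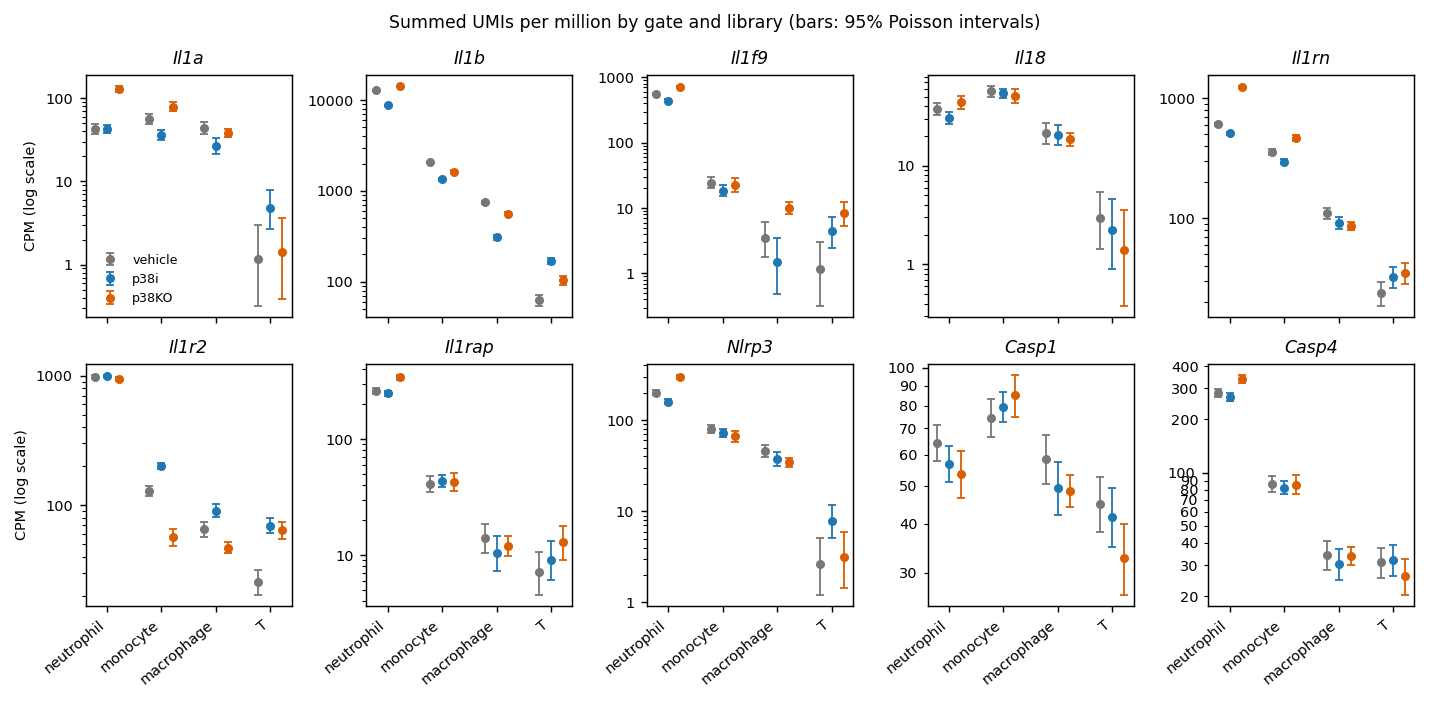
Levels of the 10 genes in CPM (log scale) in the neutrophil, monocyte, macrophage and T gates, with vehicle in grey, p38i in blue and p38KO in orange; bars are exact Poisson intervals. Il1b falls from neutrophils to T cells in each library, Casp1 stays between 32.6 and 85.0 CPM, and Il1r2 separates the libraries in monocytes and macrophages but not in neutrophils.

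Systemic p38 inhibition was compared with vehicle to ask which members differed in which cells. A member was called where its log2 ratio to vehicle was at least 0.5 either way, its interval left out 0 and both libraries had at least 20 counts together. Il1b was lower in p38i in all 3 myeloid gates. Its log2 ratio was -0.55 (-0.56 to -0.53) in neutrophils, -0.60 (-0.64 to -0.55) in monocytes and -1.27 (-1.38 to -1.17) in macrophages. The neutrophil value lies near the limit of a call and was -0.46 with cells thinned to 1500 UMIs and -0.47 with each cell weighted equally, which ends that call but not its direction. Il1b was the 1 member of 10 called in neutrophils: 3.16% of the 8870 genes tested were called lower there and 8.65% higher. Il1f9 (log2 ratio -0.35), Nlrp3 (-0.33) and Il1rn (-0.25) had intervals below 0 without reaching the limit, and the median of all 10 was -0.21 against 0.11 for all genes tested.

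In monocytes of the p38i library Il1a and Il1b were called lower and Il1r2 was called higher. Il1a was at 36.4 CPM against 56.6 in vehicle, a log2 ratio of -0.64 (-0.91 to -0.37), which was -0.39 with looser gates and -0.38 in thinned cells. The log2 ratio of Il1r2 was 0.64 (0.49 to 0.79), and stayed between 0.58 and 0.75 under each alternative setting. These were 2 members called lower where 2.73% of 10108 genes were, and 1 called higher where 4.56% were. Il1rn had -0.27, short of the limit, and the other 6 lay between -0.41 and 0.09. The 8 neutrophil markers summed to 9280 CPM in this gate in p38i and to 10809 in vehicle, although Hdc among them was at 66.5 against 56.6, and their part in the Il1r2 value was not tested.

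In macrophages of the p38i library Il1a was called lower beside Il1b, at 26.9 against 43.5 CPM, a log2 ratio of -0.70 (-1.09 to -0.31). That value was -0.36 with equal weight of cells and 0.55 in thinned cells, where 7 of 174 and 12 of 193 cells had a UMI. It was -0.60 without the top 2% of cells by UMIs, and before thinning 29.9% and 24.9% of cells had a UMI. The cause of this spread between settings was not tested. Il1b stayed between -1.58 and -0.998 under each setting. Of 9868 genes 4.08% were called lower and 2.95% higher, and no member was called higher. Il1r2 had 0.48 (0.23 to 0.74), short of the limit. Il1f9 could not be read here, with 12 and 5 counts.

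The p38KO comparison asked the same of leukocytes in tumors whose cancer cells lack p38α, and it shares the vehicle library with the p38i comparison, so the values are given side by side and no overlap was computed. In neutrophils Il1a rose from 42.9 CPM in vehicle to 130.3, a log2 ratio of 1.60 (1.38 to 1.83), where p38i had -0.0026. Il1rn rose from 605 to 1239 CPM, a log2 ratio of 1.03 (0.97 to 1.10), where p38i had -0.25. Both stayed called under each alternative setting, with 1.41 to 1.82 for Il1a and 0.90 to 1.16 for Il1rn. Nlrp3 was at 0.57 (0.45 to 0.69), near the limit, and fell short of it at 0.44 under median-ratio scaling, 0.46 in thinned cells and 0.50 with S100a8 and S100a9 left out of the totals. Of 8509 genes 10.0% were called higher and 2.63% lower, against 3 and 0 of the 10 members.

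Il1b itself differed little in p38KO neutrophils, at a log2 ratio of 0.17 (0.15 to 0.18). Median-ratio scaling lowers each neutrophil value by 0.11 in p38i and 0.13 in p38KO. Il1r2, at -0.06, had an interval that held 0 (-0.12 to 0.0013), and stood at -0.19 under that scaling, where Il1b stood at 0.04. Il1rap, Il1f9 and Casp4 had 0.39, 0.36 and 0.27, with intervals above 0, and Casp1 had -0.27 (-0.52 to -0.016).

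In p38KO monocytes the call was Il1r2, down to 56.7 CPM from 129, a log2 ratio of -1.19 (-1.44 to -0.94). It stayed between -1.30 and -0.97 under each setting. The 8 neutrophil markers summed to 3411 CPM in this gate in p38KO against 10809 in vehicle. S100a9, at 1439 against 5540 CPM, and S100a8, at 1572 against 4553, made up most of that gap. Retnlg, at 36.2 against 248 CPM, Mmp9, at 41.0 against 79.9, and G0s2, at 131 against 210, were also lower. Csf3r was at 99.3 against 82.8 CPM, Cxcr2 at 38.4 against 37.4 and Hdc at 53.7 against 56.6. These last markers were not lower in the same way, but the gate itself limited Csf3r and Cxcr2 counts. Per 1000 S100a9 UMIs, Il1r2 had 23.3 UMIs in vehicle monocytes, 44.3 in p38i and 39.4 in p38KO, and in neutrophils 9.14, 8.44 and 11.4. On the same scale Il1b had 372 UMIs in vehicle monocytes and 1137 in p38KO, and Il1rn had 64.2 and 324. With S100a9 itself lower in p38KO monocytes, these ratios follow their divisor, and nothing on Il1r2 is drawn from them. The part of neutrophil RNA or of another monocyte mixture in the call was not tested. Il1a (0.49) and Il1rn (0.39) stood above vehicle and Il1b (-0.33) below it without a call. Among 9690 genes 2.21% were called lower and 8.88% higher, against 1 and 0 members.

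In p38KO macrophages, which were 14.6% of kept cells against 4.55% in vehicle, the call was Il1f9. Its 88 counts gave 9.97 CPM where 12 counts gave 3.51 CPM in vehicle, so the log2 ratio was 1.51 (0.63 to 2.51). In thinned cells the ratio was 0.0090, with a UMI in 1.60% of cells against 1.72%, on 9 and 3 cells, and with equal weight of cells it was 0.15. Without the top 2% of cells by UMIs it was 1.64, and the cause of the gap between settings was not tested. At the neutrophil ratio of Il1f9 to S100a9, the S100a9 UMIs of this gate would give 61.1 Il1f9 counts in p38KO and 15.5 in vehicle. The observed 88 and 12 were 1.44 (1.15 to 1.77) and 0.776 (0.401 to 1.36) times those numbers. The part of neutrophil RNA in this call was not tested. The other 9 members lay between -0.47 and -0.02, where the median of all genes was 0.05. Of 10820 genes 8.85% were called higher and 3.48% lower.

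**Figure D2:**
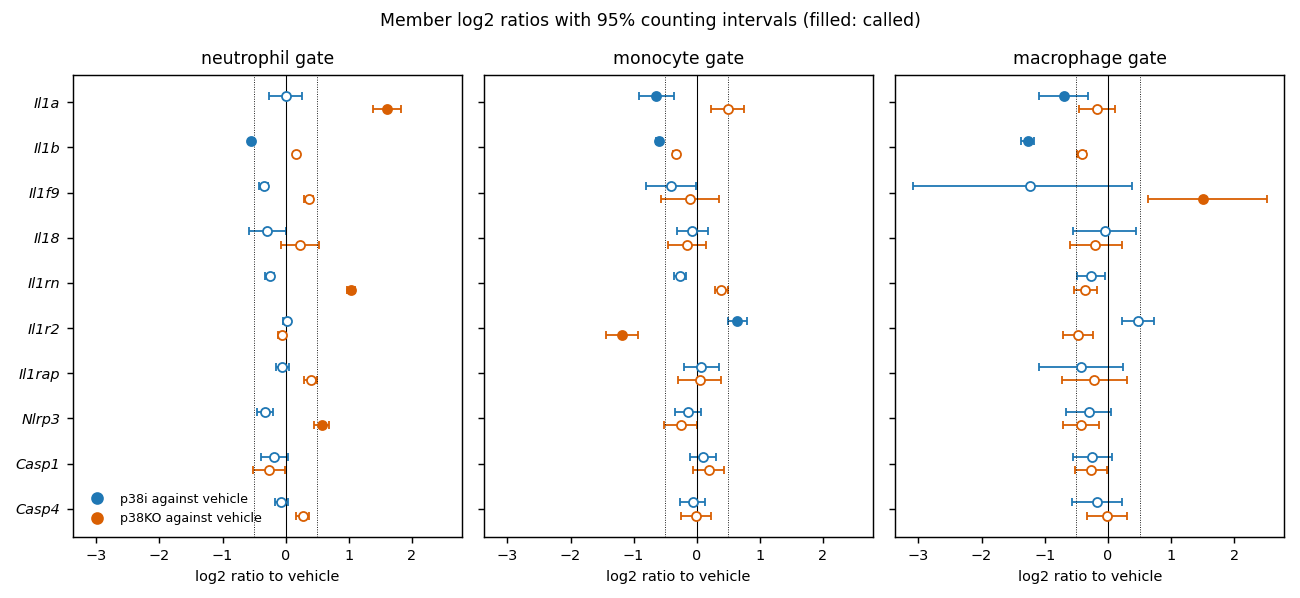
Log2 ratio to vehicle of each member in the neutrophil, monocyte and macrophage gates for p38i (blue) and p38KO (orange), with counting intervals; filled points were called, and dotted lines mark the limit of 0.5. In p38i Il1b lies below 0 in the 3 gates; in p38KO Il1a and Il1rn lie above 1 in neutrophils, and Il1r2 takes opposite sides in monocytes.

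The balance of agonist over antagonist was read as UMIs of Il1b per UMI of Il1rn, compared between libraries only, since capture differs between genes. In neutrophils the ratio was 21.1 (20.4 to 21.8) in vehicle, 17.2 (16.6 to 17.8) in p38i and 11.6 (11.2 to 11.9) in p38KO. In monocytes it was 5.79, 4.62 and 3.51, in the same order and with no overlap of intervals. In macrophages it was 6.80, 3.38 and 6.55, so there p38KO did not differ from vehicle beyond counting error, with a log2 change of -0.05 (-0.24 to 0.14). The lower ratio came from different members: in p38i neutrophils Il1b was lower and Il1rn was lower by less, and in p38KO neutrophils Il1b was near vehicle and Il1rn was higher. The log2 change in p38i neutrophils, -0.29, ranged from -0.54 with stricter gates to -0.16 in thinned cells.

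Against the decoy receptor the 2 arms parted. Il1b per Il1r2 in neutrophils was 12.97 in vehicle, 8.80 in p38i and 15.2 in p38KO, with log2 changes of -0.56 (-0.62 to -0.50) and 0.23 (0.16 to 0.29). In monocytes it was 16.0, 6.78 and 28.9, changes of -1.24 (-1.39 to -1.08) and 0.85 (0.60 to 1.10). In macrophages it was 11.6, 3.44 and 12.0. The pair of brakes shifted against each other as well: Il1rn per Il1r2 in neutrophils was 0.615, 0.512 and 1.31, and in monocytes 2.76, 1.47 and 8.23. Il1a per Il1rn in neutrophils was 0.0708, 0.0842 and 0.105, so in p38KO Il1a was higher by more than Il1rn, with a log2 change of 0.57 (0.34 to 0.80).

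**Figure D3:**
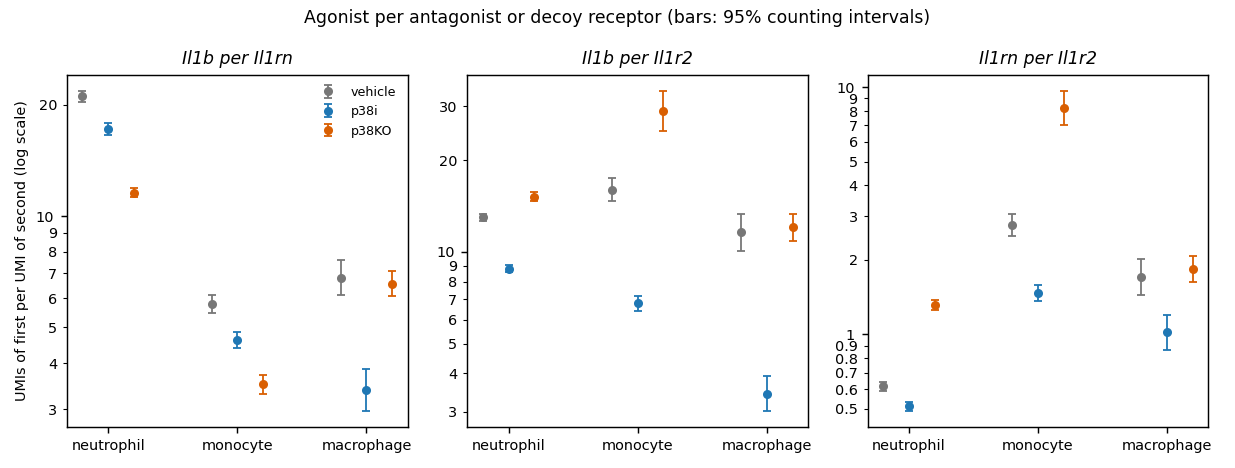
UMIs of Il1b per UMI of Il1rn or Il1r2, and of Il1rn per UMI of Il1r2 (log scale), in 3 myeloid gates of the vehicle (grey), p38i (blue) and p38KO (orange) libraries, with counting intervals. Il1b per Il1rn steps down from 21.1 to 11.6 across the neutrophil gates, while Il1b per Il1r2 is lowest in p38i and highest in p38KO in neutrophils and monocytes.

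Within the neutrophil gate, the members were set beside the Il1b level of each cell. Each cell was thinned to 1500 UMIs, and cells at or above the upper quartile of Il1b UMIs were set beside cells at or below the lower one. Il1b UMIs had a median of 15 in vehicle, 9 in p38i and 17 in p38KO. In the cells rich in Il1b, Il1rn was lower in vehicle (601 against 860 CPM, log2 ratio -0.52, -0.70 to -0.33) and in p38KO (1071 against 1695 CPM, -0.66, -0.81 to -0.52). In p38i the interval of the same ratio held 0, at -0.17 (-0.36 to 0.02). Monocytes split in the same way had Il1rn log2 ratios of -0.16 (-0.58 to 0.26) in vehicle, -0.09 (-0.42 to 0.24) in p38i and 0.89 (0.52 to 1.25) in p38KO, so there the p38KO value lay on the other side of 0. These are descriptions of cells of 1 library each, which share depth and pool.

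In neutrophils Nlrp3 was higher in the Il1b-rich cells at log2 ratios of 1.37 in vehicle, 1.06 in p38i and 1.62 in p38KO. Il1r2 was higher at 0.52, 0.80 and 0.45, and Il1rap at 0.54, 0.31 and 0.71. Il18 went the other way, at -1.40 and -1.87 in vehicle and p38KO and -0.78 (-1.73 to 0.12) in p38i, on 11 to 40 counts a side. Casp1 and Casp4 had intervals that held 0 in each library.

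Neutrophils with and without a UMI of Cxcr2, the chemokine receptor of mature neutrophils, were also compared after thinning, although Cxcr2 counts before thinning were part of the gate. Of thinned neutrophils 73.4%, 73.0% and 78.1% had a Cxcr2 UMI. Cells without it had more Il1rn: 1014 against 546 CPM in vehicle, 645 against 507 in p38i and 1966 against 1067 in p38KO. Nlrp3 had log2 ratios of cells with over cells without Cxcr2 of 0.09, 0.12 and 0.06, and each interval held 0. Cells without Cxcr2 had less Il1b, at 10721 against 15108, 8415 against 10726 and 10687 against 16571 CPM. The p38KO difference in Il1rn was as large in both kinds of cell, at log2 ratios to vehicle of 0.97 (0.86 to 1.08) with and 0.95 (0.81 to 1.10) without Cxcr2. The p38i difference in Il1rn was -0.11 (-0.23 to 0.016) with and -0.65 (-0.82 to -0.49) without Cxcr2. Il1b in p38i was lower in both, at -0.49 and -0.35.

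**Figure D4:**
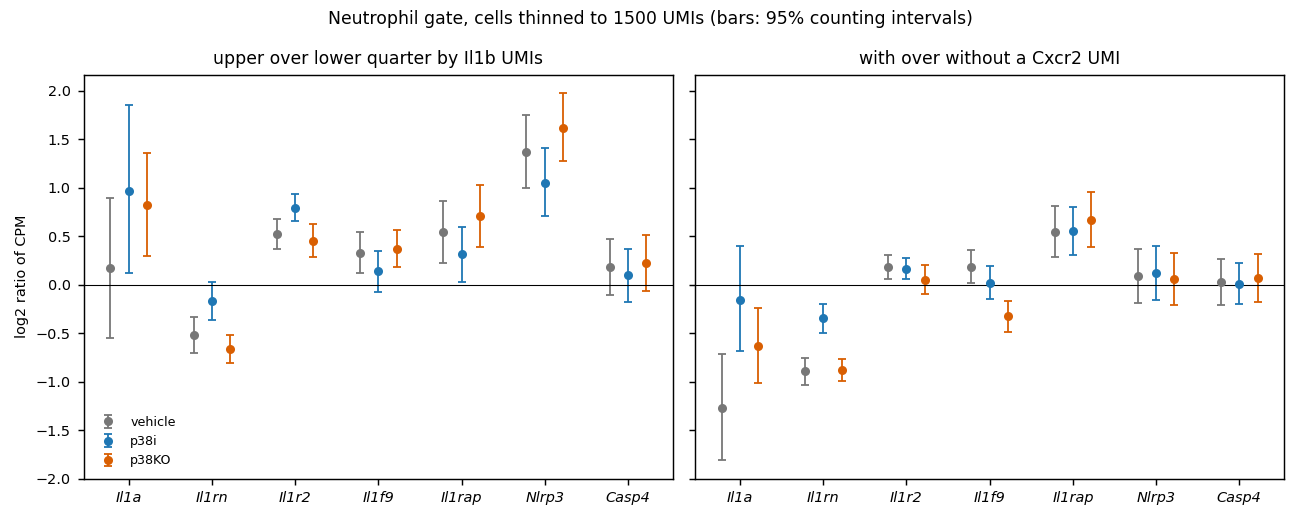
Log2 ratios of CPM within the neutrophil gate of the vehicle (grey), p38i (blue) and p38KO (orange) libraries, with counting intervals as bars. On the left, cells at or above the upper quartile of Il1b UMIs are set over cells at or below the lower one. On the right, cells with a Cxcr2 UMI are set over cells without. Nlrp3 and Il1r2 lie above 0 and Il1rn below 0 on the left, and on the right Il1rn lies below 0 in each library.

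Antagonist and agonist were often caught in the same neutrophil. Of thinned neutrophils 36.8% in vehicle, 36.0% in p38i and 53.9% in p38KO had both Il1b and Il1rn UMIs, and 54.7%, 53.9% and 40.7% had Il1b alone. Il1rn was seen in 40.9%, 40.7% and 57.5% of neutrophils, where T cells had 2.04%, 2.94% and 3.50%. Because 91.4%, 89.9% and 94.6% of neutrophils had Il1b, the share with both is set mainly by the Il1rn share. Il1b with Il1r2 was seen in 59.7%, 59.0% and 57.7%, nearly equal between libraries. Il1a was seen in few neutrophils, 3.77%, 4.39% and 8.31%, against 0.185%, 0.310% and 0.195% of T cells.

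Outside the myeloid gates, levels were set beside what free RNA of neutrophils would give, and no calls are given there. Il1b in T cells was at 63.0 CPM in vehicle, 169 in p38i and 105 in p38KO. There p38i stood above vehicle, unlike in the myeloid gates. In NK cells Il1b was at 102, 82.3 and 48.6 CPM. In vehicle T cells 213 Il1b UMIs were counted, 1.09 times (0.95 to 1.25) the number given by their S100a9 UMIs at the neutrophil ratio. The same quotient was 2.71 in p38i and 1.47 in p38KO T cells. Single T cells held up to 55 Il1b UMIs in vehicle, 72 in p38i and 48 in p38KO. Casp1 was far above it, at 154, 102 and 123 times, as were Casp4 at 24.4, 16.6 and 15.4 times and Il1r2 at 5.71, 9.77 and 13.7 times. Il1rn was above it too, at 8.64, 8.85 and 5.64 times, and Il1rap at 6.03, 5.12 and 7.64 times. Il18 had 17.4, 10.1 and 6.46 times, on 10, 7 and 4 counts, and Il1f9 had 0.464, 1.40 and 2.34 times. An excess in T cells was thus shared by several members, and its source was not tested. Il1r2, which regulatory T cells are known to express, was split by Foxp3, their defining factor, after these values were seen. T cells with a Foxp3 UMI had 73.5 CPM in vehicle and 111 in p38i, against 19.8 and 62.0 without it. In p38KO they had 52.7 against 66.8 CPM. Among Foxp3-negative cells 1 cell held 15 of 60 Il1r2 UMIs in vehicle, 29 of 167 in p38i and 47 of 155 in p38KO. In the vehicle, p38i and p38KO libraries Il1b was also higher with Foxp3, at 195, 289 and 139 CPM against 47.6, 148 and 96.6. Among Foxp3-positive cells 1 cell held 55 of 69 Il1b UMIs in vehicle, 72 of 138 in p38i and 20 of 74 in p38KO. In vehicle 12 of 67 cells with Foxp3 and 99 of 473 without had an Il1b UMI, and 11 and 28 an Il1r2 UMI. In p38i Il1b was seen in 20 of 112 and 73 of 534 cells, and Il1r2 in 21 and 44. In p38KO Il1b was seen in 21 of 91 and 63 of 423, and Il1r2 in 13 and 38. Single cells thus weighed heavily in the Il1b CPM of vehicle and p38i. Whether a difference by Foxp3 is particular to Il1r2 was not tested. The 20 to 41 dendritic cells were too few to read the members by library.

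A further 37 genes of the pathway were counted in the same fits: 12 receptors and other ligands, 9 signalling genes and 16 inflammasome genes. In neutrophils 25 of them had 20 counts or more. In p38i 1 was called higher, Il18r1, a chain of the IL-18 receptor, from 4.66 to 10.4 CPM, and 1 lower, Gsdme, a pore-forming gasdermin, from 43.4 to 25.2, where 8.65% and 3.16% of all genes tested were called. In p38KO 7 were called higher and 0 lower, where 10.0% and 2.63% of all genes were. Il18r1 was again among them, at 13.1 CPM, and Il1rl1, the IL-33 receptor, had the largest log2 ratio, 2.78, on 9 and 46 counts. Il1rl1 and Il18r1 are also genes of mast cells and basophils, whose markers stood above vehicle in this gate in both p38KO and p38i. In p38i they summed to 40.1 CPM against 4.10 in vehicle, and Mcpt8 among them had 209 counts against 4. The part of such cells in these values, Il18r1 in p38i included, was not tested. The others called higher in p38KO neutrophils were Il18bp, which binds and blocks IL-18 (0.52), and Irak3, an inhibitory IRAK kinase (0.61). Nlrp12 (0.55), Mefv, which encodes pyrin (0.51), and Naip2 (0.68) were also among them.

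In monocytes none of 28 pathway genes was called in p38i, where 4.56% of all genes were called higher and 2.73% lower, and in p38KO Nek7, a partner of NLRP3, was higher at 56.3 against 31.8 CPM, where 8.88% of all genes were called higher. In macrophages none of 26 was called in p38i, where 2.95% of all genes were called higher and 4.08% lower. In p38KO macrophages Il1rl1 was higher, on 70 counts against 1, and Cpa3, a mast cell protease, had 320 counts in that gate against 1 in vehicle. Mefv (0.98), the adaptor gene Tollip (0.63) and the kinase gene Irak4 (0.55) were also called higher there, where 8.85% of all genes were.

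Over the 18 points of 6 gates in 3 libraries, the genes whose level ran closest to Il1b among 11082 were Rhog, Mcl1, Pfkfb3, Zfp36 and Picalm, with Pearson's r of 0.985 to 0.973 on log2(CPM + 10). Zfp36 encodes tristetraprolin, a protein that binds ATTTA. Nearest to Il1rn were Ehd1, Cyp4f18, Egln3, Rap2c and Slc7a11, with 0.977 to 0.967. Among the members, Nlrp3 was nearest to Il1b (0.949) and Casp1 farthest (0.563). The points share libraries and depth, and these values follow mainly the order of the gates.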

How the data were processed

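Leukocytes of 3 pooled tumors a group were sequenced with 10x 3′ chemistry. The authors processed reads with Cell Ranger (6.0.0 in the file headers), and the submitters' notes name mm10, R 4.2.1 and Seurat 5. The deposited values are raw UMI counts per gene and barcode. The vehicle library held 21675352 UMIs, that of p38i 25996832 and that of p38KO 25997636. Kept cells had 1500 UMIs and 300 genes or more and mitochondrial counts up to 20%, which left 3820 of 4588, 4793 of 6343 and 3859 of 5212 barcodes. Between 4 and 5 kept barcodes were shared by each pair of libraries. No doublet caller was run and doublets were not removed.

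Neutrophils needed 2 or more counts of Csf3r and Cxcr2 together and more than of Ly6c2 and Fn1, monocytes 2 or more of Ly6c2 and Fn1 and more than of Csf3r and Cxcr2, both with C1qa at 1 or less. Macrophages needed 2 or more of C1qa and more than of Csf3r and Cxcr2. T, NK and dendritic cells needed 1 or more of Cd3e, Ncr1 or Flt3, with Csf3r and Cxcr2 together and C1qa each at 1 or less, and for dendritic cells Ly6c2 and Fn1 too. Each gate held 0 counts of the other genes among Cd3e, Ncr1 and Flt3. Counts were summed per gate and library and scaled to 1000000 (CPM) with exact Poisson intervals. Log2 ratios carry exact conditional binomial intervals, ratios between genes Wald intervals, and shares Clopper-Pearson intervals. Gates rest on transcripts and differ from the study's own classes. Alternatives were median-ratio scaling, stricter and looser gates, no cell filter, thinning to 1500 UMIs, equal weight of cells, the top 2% of cells by UMIs left out, and call limits. Leaving out cells with mast cell, basophil or tumor markers, cells over 5% mitochondrial counts, or S100a8 and S100a9 from totals was added after seeing the data. The members, the pathway list and the tests were chosen with earlier results of these data known. Named beside the members are listed pathway genes called in a myeloid gate, and the 5 genes nearest to Il1b and to Il1rn. Tail lengths are of the longest annotated 3′ untranslated region in GENCODE M21, and a like length is within 20% below or 25% above. The procedure was run on simulated Poisson counts, both sides drawn from the vehicle profile with known changes planted in some genes. That run covers counting error only and cannot address differences between mice, pools or libraries. Tools were Python 3.11.15, numpy 2.4.6, scipy 1.17.1 and matplotlib 3.10.9.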

Additional observations from a re-analysis of the deposited data

How the results depend on the processing

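The 11 calls of members are those in the 3 myeloid gates. All 11 stayed with stricter gates, with no cell filter and without the top 2% of cells by UMIs. They also stayed without cells with mast cell, basophil or tumor markers, and without cells over 5% mitochondrial counts. Median-ratio scaling and totals without S100a8 and S100a9 each kept 10, looser gates 10, equal weight of cells 8 and thinning 6. Il1a in p38i macrophages reversed to 0.55 in thinned cells. The count of members called in p38i neutrophils went from 1 to 0 in thinned cells, with equal weight and at a log2 limit of 1. In p38i monocytes it went from 3 to 0 at a limit of 1. In p38KO monocytes it went from 1 to 2 with looser gates (Il1b, -0.57, added), in thinned cells, with equal weight, without the top 2%, without cells with mast cell or tumor markers and without cells over 5% mitochondrial counts (Il1a added in each, at 0.52 to 0.77). In p38i macrophages it went from 2 to 1 in thinned cells and at a limit of 1, and to 4 with equal weight. Those 4 did not hold Il1a, whose call was lost with equal weight. In p38KO macrophages it went from 1 to 2 with median-ratio scaling, stricter or looser gates, without cells with mast cell or tumor markers and without cells over 5% mitochondrial counts, to 0 in thinned cells and to 3 with equal weight. Those 3 did not hold Il1f9, whose call was lost there. Under median-ratio scaling the member added in p38KO macrophages was Il1r2, called lower. The log2 change of Il1b per Il1rn in neutrophils was -0.54 (stricter gates), -0.16 (thinned) and -0.20 (equal weight) in p38i, and -1.01 (stricter), -0.79 (looser) and -0.78 (thinned) in p38KO. In monocytes looser gates gave -0.47 in p38i and -0.93 in p38KO. The cause of these moves was not tested. No paired analysis was possible because each group has 1 library. Counting intervals do not hold the spread between mice, and members under 20 counts in a gate could not be read at this depth.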
